A study of Mus musculus with 18 samples.

Results

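The genes described here encode extracellular matrix proteins, the ADAMTS proteases that cut them and the integrins that hold cells to them, measured for mRNA, ribosome-protected fragments (RPFs) and translational efficiency (TE) in the E11.5 mouse embryo. Members were found by gene symbol. Every symbol that began with Col and a digit, Lama, Lamb and a digit, Lamc, Itga, Itgb, Fbn, Fbln, Adamts, Ltbp or Mmp, or that was Hspg2 or Fn1, was taken, and 1 integrin-binding protein was left out. This gave 20 genes of the 12241 genes measured in either table: 9 ADAMTS proteases, 6 collagens, 2 integrins, 2 laminin chains and the TGF-beta-binding protein *Ltbp1*. The deposited tables carry UCSC identifiers, and only 3379 of the genes could be paired with a symbol, from lists that the study had ordered by its own measures. Of the 20 members, 10 came from a list ordered by TE in the mesoderm and 14 from a list ordered by the change in TE between forelimb bud and neural tube, with *Adamts6*, *Col11a2*, *Col20a1* and *Col27a1* on both. For a gene on 1 list only, values on the measure that brought it in are therefore given as description, without a test. The 4 genes on both lists were each found by the other measure too, so tests are given for them. They still stand on the list ordered by the measure tested, which limits what those tests can show. On the low side of each list, the member nearest to its inner edge was *Adamts18*, with a log2 TE of -1.39 in the mesoderm, and *Adamts3*, with a log2 change in TE of -1.19. The genes just outside carry no symbol and were not analysed here.

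The study asked how translation differs between genes and between tissues. It profiled 3 tissues at E11.5, with 3 replicates each of Ribo-Seq and RNA-Seq and 18 libraries in all. Mesoderm cells were GFP-positive cells sorted from embryos with the transgene *Tg(T-cre)1LWD/J* and 1 reporter allele, *R26-mTmG* flox/+, in which T-Cre switches membrane Tomato to membrane GFP in descendants of the primitive streak, so the sort pools somites, limb mesenchyme and intermediate mesoderm. Neural tube (NT) and forelimb buds (FL) were dissected by hand from the same FVB/NJ wild-type embryos. The NT was taken from the level of the hind limb up to the rhombomeres. All tissues received cycloheximide to hold ribosomes in place, and no other treatment is named apart from dissociation. Mesoderm embryos were dissociated with trypsin before sorting, and neural tubes with papain unless snap frozen. How many embryos made up a replicate is not given in the sources used here, so p-values measure the spread between these samples.

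The extracellular matrix is the secreted scaffold around cells. Fibrillar collagens assemble from triple helices in which glycine recurs every 3 residues, laminins form basement membranes, and integrins are paired membrane receptors that bind these proteins or the growth factors stored in them. ADAMTS proteases process procollagens and cleave proteoglycans such as versican and aggrecan. In the limb bud this matrix surrounds mesenchyme that will form cartilage, whereas in the neural tube a basement membrane encloses the epithelium.

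Values are normalized reads, that is, reads on the coding sequence divided by a size factor for each library. The log2 TE is the log2 ratio of Ribo-Seq to RNA-Seq minus its median over all genes of the tissue, so 0 is the typical gene and -1 is a ratio 2-fold below it. A gene was called TE-low or TE-high if its adjusted p was under 0.05 and its TE 3-fold or more away from the median. Ribo-Seq libraries held between 11000015 and 31993255 reads on all genes and RNA-Seq libraries between 24555103 and 50136443. FL Ribo-Seq replicate 3 stood apart. Its correlation across genes with the FL RNA-Seq libraries was between 0.901 and 0.908, against 0.728 to 0.740 for the other FL Ribo-Seq libraries. Many calls and TE values that rest on it, though not all, are also given without it. Tissue labels were checked on marker genes, and none of the markers found was at 0 in a tissue. In RNA-Seq, the summed level of 8 neural markers lay between 50520 and 76570 normalized reads in NT and between 5777 and 7000 in FL, whereas 6 limb mesenchyme markers summed to between 3215 and 3334 in NT and between 32610 and 38960 in FL. In mesoderm RNA-Seq, which has its own normalization, the neural sum lay between 8798 and 12450 and the limb mesenchyme sum between 22450 and 27280. Neural marker mRNA was thus present in the sorted mesoderm as well. In these tissue samples, fewer cells of a type and less RNA per cell cannot be told apart.

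The coding sequences of the 20 genes are long. In the GENCODE annotation of GRCm38 (mm10), their median length was 4615.5 nt, against 1194 nt over 21454 coding genes. The bases around the start codon are shown for the genes on which the results turn, because they are where initiation takes place. In each line the start codon is in capitals, with 12 bases before it and 9 after it.
*Itga10* (chr3:96645584-96664519, plus strand): ggacaagcgcccATGgagtctctc
*Adamts10* (chr17:33524204-33553782, plus strand): cacgtagcccctATGgcttctgcc
*Adamts6* (chr13:104287835-104496695, plus strand): gttttccaaattATGgaaatttcg
*Col27a1* (chr4:63214004-63334991, plus strand): taggggcctgccATGggcacggga
*Itgb8* (chr12:119158022-119238802, minus strand): ctgctttgcattATGtgcggctcg
*Lama2* (chr10:26980036-27619758, minus strand): gctccggccaggATGcctgcggcc
*Ltbp1* (chr17:75005568-75392512, plus strand): agactgcccgcgATGgcgggagcc
The letters ANNATGG or GNNATGG, a purine before the start codon and a G after it, were searched on the coding strand of the annotated isoform. They were present in 9 of the 20 genes (45%), against 38.9% of all coding genes, and both *Itga10* and *Itgb8* lack them. An upstream ATG stood in the annotated 5′ leader of 11 of the 20 genes (55%), against 51.2% of all coding genes, with 7 in *Adamts6* and 5 in *Itgb8* but 0 in *Itga10* and *Ltbp1*.

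The collagens also share a coding repeat. A triple helix is encoded as a glycine codon in every 3, shown here at the start of the longest unbroken run in *Col11a2*, *Col27a1* and *Col24a1*, with the glycine codons in capitals.
*Col11a2* (codons 487 to 501): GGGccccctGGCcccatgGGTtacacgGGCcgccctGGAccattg
*Col27a1* (codons 673 to 687): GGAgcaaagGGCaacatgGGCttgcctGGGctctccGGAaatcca
*Col24a1* (codons 568 to 582): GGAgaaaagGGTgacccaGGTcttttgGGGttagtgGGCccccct
The run held 338 repeats in *Col11a2* (58.4% of its codons), 217 in *Col27a1* (35.3%) and 216 in *Col24a1* (37.4%), but 75 in *Col7a1* (7.64%), 45 in *Col6a3* (5.04%) and 32 in *Col20a1* (7.05%). The 3 collagens with the long runs had log2 TE of -1.61, -3.20 and -1.67 in the mesoderm, and those with shorter runs had -1.63, 0.23 and -1.74. All of them but *Col6a3* came from the list ordered by this measure, and a link between run length and TE was not tested.

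In the mesoderm, 9 of the 20 genes were TE-low and 0 were TE-high, where 10.9% of all 12064 genes were TE-low and 1.17% TE-high. Since 10 members were brought in by their TE in this tissue, the count over all 20 is only a description. The other list brought in 14 members by another measure, and of these 4 were TE-low and 0 TE-high, the 4 genes that stand on both lists: *Adamts6*, *Col27a1*, *Col20a1* and *Col11a2*. A further 3, *Adamts9*, *Adamts19* and *Itgb8*, passed the adjusted p but not the 3-fold threshold. The median log2 TE of the 14 was -0.60, where that of all genes is 0 by construction.

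The integrins came out far apart in the mesoderm. *Itga10*, the alpha chain of a collagen receptor of chondrocytes, had 264.6, 146.2 and 208.6 normalized reads in RNA-Seq and 14.90, 6.22 and 20.32 in Ribo-Seq, the latter only 10, 3 and 9 reads. The groups are well separated. Its log2 TE of -3.94 (SE 0.31) placed it 57th from the lowest of 12064 genes, a ratio 15.3-fold below the median gene, on the measure by which it was chosen. *Itgb8*, the beta chain of a receptor that activates latent TGF-beta, had 186.2, 101.3 and 194.0 normalized reads in RNA-Seq and 128.1, 85.05 and 90.33 in Ribo-Seq. These groups overlap, and its log2 TE was -0.66 (SE 0.24, limma adjusted p = 0.029).

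The collagens held 5 of the 9 TE-low members. *Col27a1*, a fibrillar collagen of developing cartilage, had 3450, 3181 and 5291 normalized reads in RNA-Seq but 335.1, 213.7 and 1125 in Ribo-Seq, with replicate 3 highest in both. Its log2 TE was -3.20 (SE 0.27, limma adjusted p = 5.7e-06). *Col20a1*, a collagen that associates with fibrils, was low in both library types, with 132.1, 117.0 and 118.3 normalized reads in RNA-Seq and 38.73, 62.23 and 20.32 in Ribo-Seq, and its log2 TE was -1.74 (SE 0.32, adjusted p = 0.00072). *Col11a2*, a chain of the type XI collagen of cartilage fibrils, had 724.5, 1148 and 1916 normalized reads in RNA-Seq and 196.6, 327.8 and 937.2 in Ribo-Seq. For this gene the groups overlap, because replicate 3 was highest in both library types, and it was called TE-low (log2 TE -1.61, SE 0.20, adjusted p = 7e-05). The call lies at the edge of the 3-fold threshold and was lost without replicate 1 (-1.44) or replicate 2 (-1.50), as was *Col20a1* without replicate 3 (-1.35). *Col24a1* and *Col7a1*, a fibrillar collagen and the collagen of anchoring fibrils under the epidermis, had log2 TE of -1.67 and -1.63, as description only. *Col6a3*, a chain of the microfibrillar type VI collagen, was the exception, at 0.23 (SE 0.20, adjusted p = 0.32).

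Among the proteases, *Adamts10* had the highest mRNA level per length of all members, 2009 ± 265 normalized reads per kb (SD, n = 3), and one of the lowest TE values. This microfibril-associated protease had 7213, 5567 and 6821 normalized reads in RNA-Seq and 545.2, 520.7 and 738.4 in Ribo-Seq, a log2 TE of -3.48 (SE 0.18) that is given as description. *Adamts6*, its closest relative, had 1017, 357.4 and 664.8 normalized reads in RNA-Seq and 104.3, 29.04 and 92.59 in Ribo-Seq. The groups do not overlap, and its log2 TE was -3.26 (SE 0.21, limma adjusted p = 2.2e-06). *Adamts20*, a versican-cleaving protease, followed at -1.93 as description. *Adamts9*, a protease of the same subfamily, was lower by less than 3-fold, with a log2 TE of -1.09 (SE 0.20, adjusted p = 0.00062), and so was *Adamts19*, at -0.79 (SE 0.18, adjusted p = 0.0024). *Adamts2* and *Adamts3*, which trim procollagens, had log2 TE of -0.54 (adjusted p = 0.065) and 0.12 (adjusted p = 0.62), and *Adamts5*, an aggrecan-cleaving protease, had -0.52 (adjusted p = 0.073). None of the latter passed the threshold.

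The laminins and *Ltbp1* lay near the median TE, and *Ltbp1* and *Lamb2* were the next most abundant mRNAs per length after *Adamts10*. *Lamb2*, a laminin beta chain, had 4552, 5775 and 6149 normalized reads in RNA-Seq and 2875, 4837 and 7235 in Ribo-Seq, and *Ltbp1*, which tethers latent TGF-beta to the matrix, had 4197, 5562 and 6371 in RNA-Seq and 4461, 3560 and 7691 in Ribo-Seq. In both genes the library types overlap. The log2 TE was -0.26 (adjusted p = 0.27) for *Lamb2*, -0.13 (adjusted p = 0.60) for *Ltbp1* and 0.32 (adjusted p = 0.18) for *Lama2*, the laminin alpha chain of muscle and nerve basement membranes. Ribo-Seq lay below RNA-Seq without overlap in 11 of the 20 genes, where 27.3% of all genes did. Most of the 11 were brought in by a low TE in this tissue, so the count is only a description. Mesoderm Ribo-Seq replicate 3 was the highest of the 3 for 15 of the 20 genes, against 22.4% of all genes. RNA-Seq replicate 3 was the highest for 14 of 20, against 20.5%, so the members were high together in both libraries of that number. The part of this in the TE values was not tested, beyond the fits without replicate 3 given here.

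**Figure D1:**
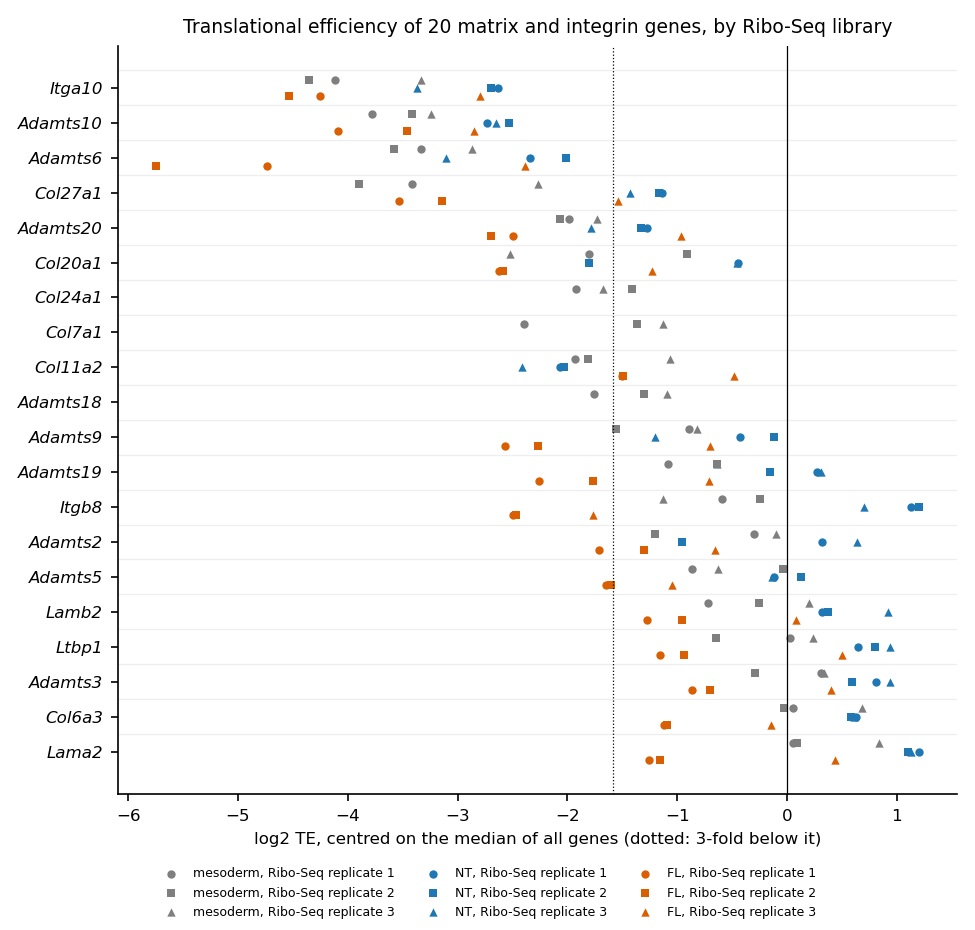
Log2 TE (x axis, centred on the median of all genes in each library) for each of the 20 genes (y axis), with 1 point for each Ribo-Seq library. NT and FL libraries are set against the mean RNA-Seq of their tissue, and mesoderm libraries against the RNA-Seq of the same replicate number. Colour gives the tissue, marker shape the replicate, and the dotted line lies 3-fold below the median. *Itga10*, *Adamts10* and *Adamts6* lie left of the dotted line in all 9 libraries, and orange triangles, FL replicate 3, lie right of the other FL points for all 17 genes measured there.

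Of the 20 genes, 17 were measured in NT and FL, and *Adamts18*, *Col24a1* and *Col7a1* were not in that table. The 7 members chosen by their mesoderm TE are tested here, since NT and FL were separate samples. Of these, *Adamts6*, *Col11a2*, *Col20a1* and *Col27a1* also stand on the list ordered by the change in TE between these tissues. They were chosen for a low TE in the mesoderm, so the shares of all genes are not those of genes equally low there. Those shares were not computed. In NT, 4 of the 7 were TE-low and 0 TE-high, where 4.13% of 11231 genes were TE-low and 0.436% TE-high. In FL, 6 of the 7 were TE-low and 0 TE-high, where 13.4% were TE-low and 6.25% TE-high, and without FL Ribo-Seq replicate 3 the count was again 6 of 7, where 18.1% were. All 7 lay below the median gene in both tissues, between -2.88 and -0.89 in NT and between -4.28 and -1.14 in FL.

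*Itga10* had 159.9, 94.25 and 124.1 normalized reads in NT RNA-Seq and 19.52, 18.70 and 11.60 in NT Ribo-Seq, and 161.1, 178.8 and 166.8 in FL RNA-Seq and 8.02, 6.39 and 23.89 in FL Ribo-Seq. Ribo-Seq lay below RNA-Seq in both tissues without overlap. The log2 TE was -2.88 (SE 0.50, limma adjusted p = 0.0016) in NT and -3.85 (SE 0.50, adjusted p = 0.00014) in FL (-4.39 without FL Ribo-Seq replicate 3), values that rest on 3 to 27 reads in each Ribo-Seq library. *Adamts10* had 2276, 1967 and 1910 normalized reads in NT RNA-Seq against 313.7, 361.9 and 340.7 in Ribo-Seq, and 5520, 6569 and 5146 against 339.9, 526.5 and 809.2 in FL. In both tissues the groups are several-fold apart, with a log2 TE of -2.62 (SE 0.27, adjusted p = 8.4e-05) in NT and -3.44 (SE 0.27, adjusted p = 8.3e-06; -3.76 without FL Ribo-Seq replicate 3) in FL, and both calls held in all 23 alternative fits.

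*Adamts6* had 169.9, 351.3 and 379.1 normalized reads in NT RNA-Seq against 56.38, 71.56 and 33.34 in Ribo-Seq, and 583.5, 649.8 and 622.7 against 22.45, 10.66 and 119.4 in FL. The FL Ribo-Seq values, from 14, 5 and 80 reads, spread over more than 10-fold, with replicate 3 highest. The log2 TE was -2.47 (SE 0.66, limma adjusted p = 0.017) in NT and -4.28 (SE 0.66, adjusted p = 0.00032) in FL, where it was -5.23 without replicate 3. The NT call was lost without NT RNA-Seq replicate 2 or 3 or NT Ribo-Seq replicate 3, with adjusted p between 0.055 and 0.066.

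The calls of the collagens differed between the tissues. *Col27a1* was TE-low in FL (log2 TE -2.72, SE 0.38, adjusted p = 0.00022, and -3.33 without FL Ribo-Seq replicate 3) but had -1.23 (SE 0.38, adjusted p = 0.033) in NT, under the 3-fold threshold. *Col11a2* was TE-low in NT (-2.15, SE 0.32, adjusted p = 0.00062) and had -1.14 (SE 0.32, adjusted p = 0.0083) in FL, again under it, as was -1.48 without that library. *Col20a1* had -0.89 (SE 0.50, adjusted p = 0.20) in NT and was TE-low in FL (-2.13, SE 0.50, adjusted p = 0.0032), and *Adamts20* had -1.45 (SE 0.37, adjusted p = 0.014) in NT and was TE-low in FL (-2.04, SE 0.37, adjusted p = 0.0008). Without FL Ribo-Seq replicate 3 these FL values were -2.59 and -2.59, and both stayed TE-low. A call in one tissue and not in the other does not show a difference between them, which is tested next.

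For the change in TE, FL minus NT, 0 of the 7 testable members were called at the study's threshold of an adjusted p under 0.2 and 2-fold, where 0.401% of all genes were called. *Adamts6*, *Col11a2*, *Col20a1* and *Col27a1* among them are also on the list ordered by this change, so only *Itga10*, *Adamts10* and *Adamts20* were found without it. By limma 3 of the 7 had an unadjusted p under 0.05, by edgeR 0 were called (0.347% of all genes) and 1 had such a p, and by DESeq2 0 were called (7.62% of all genes) and 2 had such a p. The share of all genes with such a p was not computed, so the counts of unadjusted p are no result about the members. The log2 change was -1.83 (SE 0.93, adjusted p = 0.30) in *Adamts6*, -1.52 (SE 0.54, adjusted p = 0.29) in *Col27a1*, -1.27 (SE 0.70, adjusted p = 0.32) in *Col20a1*, and between -0.99 and -0.62 in *Itga10*, *Adamts10* and *Adamts20*. *Col11a2* went the other way, at 0.99 (SE 0.45, adjusted p = 0.29). This result depends on FL Ribo-Seq replicate 3. Without it, 6 of the 7 were called lower in FL, where 19.8% of all genes were called lower and 36.3% in either direction, with changes from -1.16 in *Adamts10* and *Adamts20* to -2.79 in *Adamts6* and adjusted p between 0.00043 in *Col27a1* and 0.062 in *Itga10*. Without NT Ribo-Seq replicate 3, *Adamts6* (-2.13, adjusted p = 0.17) and *Col27a1* (-1.60, adjusted p = 0.13) were called lower, where 15% of all genes were.

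The other 10 genes in that table were found only through the list ordered by this change, and their values are description only. All 10 had a lower TE in FL than in NT, between -3.27 in *Itgb8* and -1.19 in *Adamts3*. *Lama2* was at -1.83, *Adamts19* at -1.74, *Col6a3* and *Adamts5* at -1.42, *Ltbp1* at -1.36, *Lamb2* and *Adamts9* at -1.28 and *Adamts2* at -1.25. Of all 17 genes 1, *Itgb8*, was called lower, where 0.276% of all genes were. Without FL Ribo-Seq replicate 3 the count was 16, all but *Col11a2*, where 19.8% of all genes were called lower. In NT, 8 of the 17 genes had a TE above the median, among them *Lama2* at 1.16, *Itgb8* at 1.02 and *Ltbp1* at 0.81, whereas in FL 17 of 17 lay below it, with a median log2 TE of -1.56 (-2.00 without replicate 3).

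**Figure D2:**
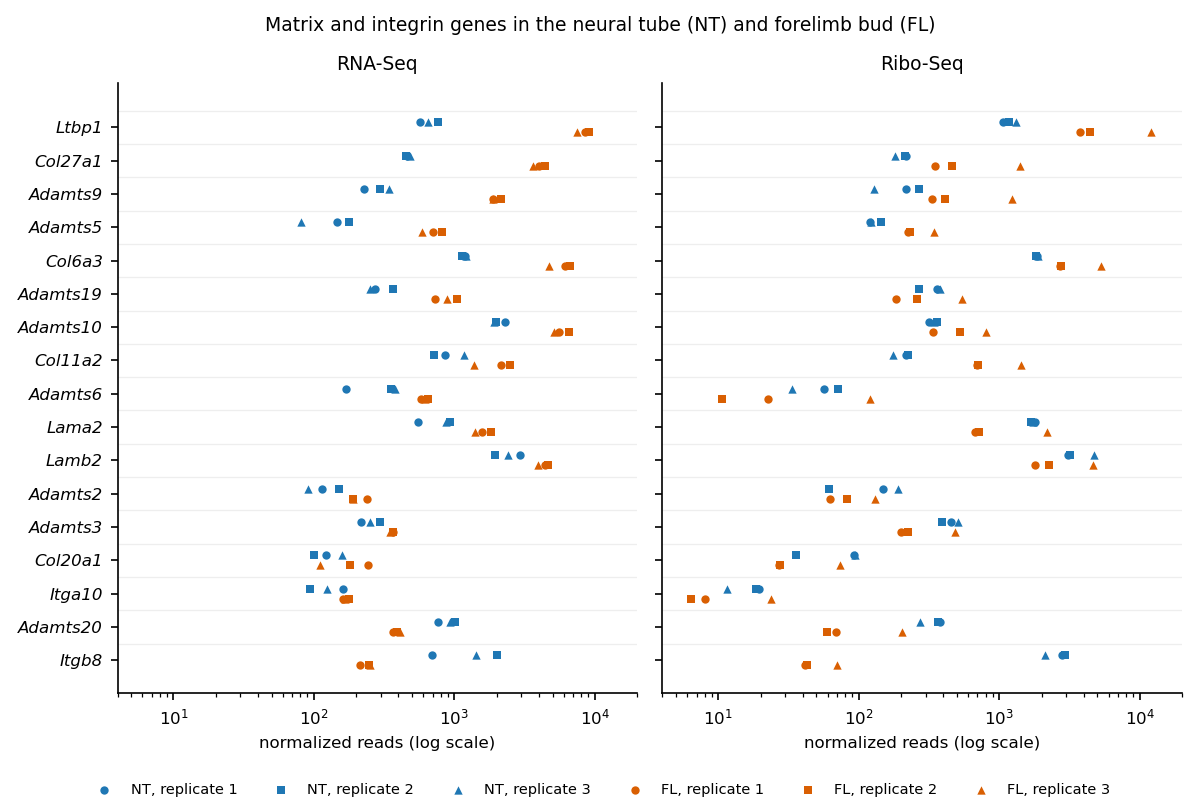
Normalized reads (x axis, log scale) of 17 matrix and integrin genes (y axis) in RNA-Seq (left) and Ribo-Seq (right), with 1 point for each library, blue for NT and orange for FL. From *Ltbp1* down to *Col20a1*, the FL mRNA points lie mostly right of the NT points, and in Ribo-Seq many of the same genes overlap or change order, with FL replicate 3 (triangles) the highest FL point for all 17 genes.

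At the level of mRNA, of the 7 testable genes, 3 rose (*Col27a1*, *Adamts10* and *Col11a2*) and 1 fell (*Adamts20*) at an adjusted p under 0.05 and 2-fold, where 7.82% of all genes were called higher and 9.49% lower. *Col27a1* had 459.8, 455.8 and 479.8 normalized reads in NT and 4010, 4440 and 3604 in FL, a log2 change of 3.10 (SE 0.38, limma adjusted p = 3.7e-05), or 8.59-fold. The groups are far apart, and this was the 89th largest rise of 11231 genes. *Adamts10* rose by 1.48 on the log2 scale (SE 0.27, adjusted p = 0.00095). *Col11a2* had 852.2, 719.7 and 1168 normalized reads in NT and 2147, 2498 and 1371 in FL, with the lowest FL library just above the highest NT library, and rose by 1.12 (SE 0.32, adjusted p = 0.020). *Adamts20* had 766.3, 1013 and 928.7 in NT and 363.0, 391.2 and 412.5 in FL and fell by 1.20 (SE 0.37, adjusted p = 0.032). The *Adamts10* call was lost without the whole of replicate 2 (1.35, adjusted p = 0.071). The *Col11a2* call was lost without NT RNA-Seq replicate 1 or 2 or FL RNA-Seq replicate 1 or 2 (adjusted p between 0.056 and 0.10), and the *Adamts20* call without NT replicate 2 or 3 or any FL RNA-Seq library (between 0.074 and 0.10). *Adamts6* (1.12, adjusted p = 0.28), *Col20a1* and *Itga10* (each 0.45, adjusted p = 0.62) did not pass.

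Over all 17 genes, 8 were called higher and 2 lower in FL mRNA, as description for the 10 genes chosen by their change in TE. RNA-Seq is the divisor in TE, so a choice by lower TE in FL leans toward higher mRNA in FL. *Ltbp1* had 568.4, 767.7 and 654.2 normalized reads in NT RNA-Seq and 8536, 9027 and 7518 in FL, a log2 difference of 3.66, the highest among the members. *Adamts9* differed by 2.77, *Adamts5* by 2.44, *Col6a3* by 2.29 and *Adamts19* by 1.58. *Lama2*, *Lamb2*, *Adamts2* and *Adamts3* had differences between 0.51 and 1.05 that did not reach the call, although their groups do not overlap. FL lay above NT without overlap in 14 of 17 genes in RNA-Seq, where 23.3% of all genes did, and below it in 2, *Adamts20* and *Itgb8*, where 24.1% did. The neural and limb mesenchyme markers given above move with the same groups, and their part in these differences was not tested.

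Ribosome occupancy followed the mRNA only in part. In RPFs, 2 of the 7 testable genes rose in FL and 1 fell, where 14.9% of all genes were called higher and 17.8% lower. *Col11a2* had 217.6, 224.4 and 175.4 normalized reads in NT Ribo-Seq and 697.5, 703.4 and 1418 in FL, a rise of 2.11 on the log2 scale (SE 0.32, limma adjusted p = 0.00016), and its groups do not overlap. *Col27a1* had 215.4, 212.2 and 179.8 in NT and 349.6, 458.2 and 1399 in FL and rose by 1.59 (SE 0.38, adjusted p = 0.0051), but without FL replicate 3 the difference was 0.98, under 2-fold. *Adamts20* had 377.3, 366.7 and 271.1 in NT and 68.95, 59.68 and 201.6 in FL and fell by 1.82 (SE 0.37, adjusted p = 0.0018). *Adamts10*, whose mRNA rose, had an RPF difference of 0.63 (SE 0.27, adjusted p = 0.068). Without FL replicate 3, *Adamts6* (-1.66, adjusted p = 0.0054) and *Col20a1* (-1.27, adjusted p = 0.034) were called lower, against -0.71 (adjusted p = 0.39) and -0.81 (adjusted p = 0.19) with it.

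Among the other 10 genes, again as description, *Ltbp1* had the highest difference in RPFs. It had 1060, 1178 and 1326 normalized reads in NT Ribo-Seq and 3773, 4414 and 11978 in FL, a log2 difference of 2.30 (1.79 without replicate 3) that is smaller than its difference in mRNA. *Lama2* and *Lamb2* had mRNA differences above 0 and RPF differences below it, at -0.78 and -0.43. *Lama2* had 1797, 1686 and 1750 normalized reads in NT Ribo-Seq and 670.2, 720.4 and 2183 in FL, so the 2 FL libraries other than replicate 3 lay below NT and replicate 3 above it. *Adamts3*, *Adamts2* and *Adamts19* had the same pattern of signs, at -0.68, -0.44 and -0.17. All 17 genes gave 5 calls higher and 2 lower, and 2 higher and 6 lower without replicate 3, where 21.4% of all genes were called higher and 24.3% lower.

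*Itgb8* had the largest differences between tissues of the 17 genes in RPFs and in TE, and was chosen by its change in TE. Its mRNA had 692.3, 1998 and 1418 normalized reads in NT and 214.3, 245.9 and 251.9 in FL, a log2 difference of -2.40 (SE 0.35). Its RPFs had 2800, 2949 and 2124 in NT and 41.69, 42.63 and 70.17 in FL, where the reads behind the FL values were 26, 20 and 47. In neither library type do the tissues overlap. The RPF difference was -5.67 (SE 0.35), or 51.0-fold, and the change in TE was -3.27 (SE 0.49), the 10th lowest of 11231 genes. The log2 TE itself was 1.02 in NT, -2.22 in FL and -0.66 in the mesoderm, and each NT library lay above the median gene, each FL and mesoderm library below it. Per length, *Itgb8* had the highest RPF level of the 17 genes in NT, 1171 normalized reads per kb, ahead of *Lamb2* at 685.6, while *Adamts10* (630.8) and *Itgb8* (611.1) had the highest NT mRNA levels.

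**Figure D3:**
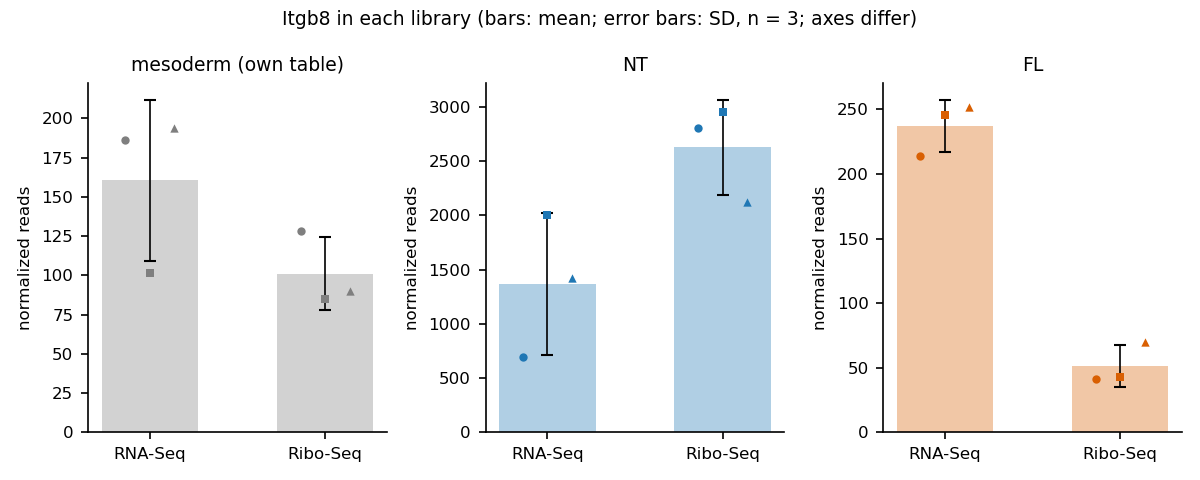
Normalized reads (y axis, linear from 0, with a different scale in each panel) of *Itgb8* in RNA-Seq and Ribo-Seq of the mesoderm, NT and FL. Bars are means, error bars SD with n = 3, and points single libraries. Ribo-Seq is above RNA-Seq in NT (2624 ± 440 against 1369 ± 654) and below it in FL (51.5 ± 16.2 against 237.3 ± 20.2), and the mesoderm has its own normalization.

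FL Ribo-Seq replicate 3 touches each FL result above. It gave the highest normalized reads of the 3 FL Ribo-Seq libraries for 17 of 17 genes, against 43.0% of all genes, and lay a median of 1.32 on the log2 scale above the other pair for these genes. The SD over all genes of its log2 ratio to FL RNA-Seq was 0.85, against 1.58 and 1.54 for replicates 1 and 2. NT Ribo-Seq replicates 1, 2 and 3 had 0.81, 0.79 and 1.11, so FL replicate 3 was nearer to NT replicates 1 and 2 than to its own group in this measure, and NT replicate 3 was farther from its own. The correlation of FL replicate 3 with FL replicates 1 and 2 was 0.886 and 0.896, and theirs with each other 0.976. The summed Ribo-Seq level of 6 erythroid markers was 131300 and 168300 normalized reads in FL replicates 1 and 2, 87470 in replicate 3 and between 51090 and 67780 in NT. The part of these differences in the TE values was not tested.

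**Figure D4:**
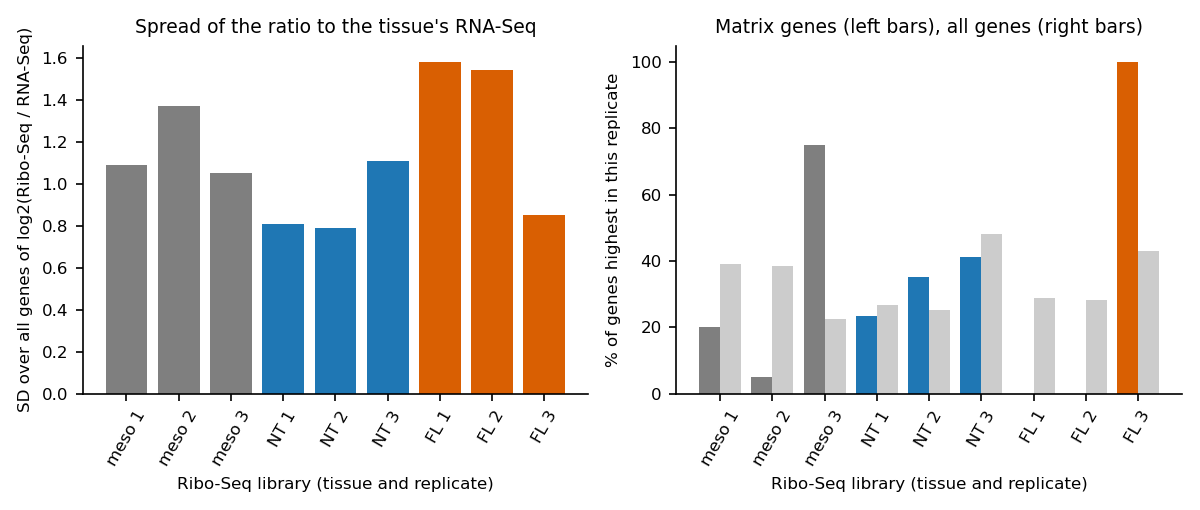
Left, SD over all genes of the log2 ratio of each Ribo-Seq library to the mean RNA-Seq of its tissue (y axis, log2 units). Right, percent of genes for which that library is the highest of its 3 replicates (y axis), for the matrix and integrin genes (left bar of each pair, in the tissue's colour) and for all genes (right bar, light grey). FL replicate 3 is highest for 100% of the members, against 43.0% of all genes, and FL replicates 1 and 2 for 0.

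The level of the members per length ran from *Adamts10*, with the most mRNA in the mesoderm (2009 normalized reads per kb), NT (630.8) and FL (1767), to *Col20a1*, with the least (30.42, 31.33 and 44.31). In RPFs the order was different. *Ltbp1* (1031), *Lamb2* (933.6) and *Col6a3* (576.9) led the mesoderm and *Itga10* came last, at 4.014, while *Adamts10* stood at 184.9. *Ltbp1* (1323) also led FL, followed by *Lamb2* (543.0) and *Col6a3* (448.5), and did so in the same order without replicate 3 (806.0, 379.6 and 340.6). The normalized reads of *Ltbp1* and *Lamb2* overlap between their mesoderm Ribo-Seq libraries when divided by length, so their order in that tissue is within the spread. The same holds for the mRNA of *Adamts10* against *Itgb8* in NT (630.8 ± 60.5 and 611.1 ± 292, SD, n = 3) and against *Ltbp1* in FL (1767 ± 227 and 1646 ± 152).

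Other matrix genes that the same lists pair with a symbol were set beside the members in 3 groups, likewise chosen on these measures, so their counts carry no test. Of 11 matrix proteins and proteoglycans in the mesoderm, 0 were TE-low and 3 TE-high, 7 lay above the median gene and 4 below it, and their median log2 TE was 1.53, with the small leucine-rich proteoglycans *Lum* (1.66) and *Bgn* (1.63) among the TE-high and the glypican *Gpc2* lowest (-0.82). Of 10 matrix enzymes and inhibitors, 3 were TE-low, the sheddase *Adam8* (-3.69) and the heparan sulphate enzymes *Ndst1* (-2.01) and *Ndst2* (-1.76), and 1 was TE-high, the collagen cross-linking *Lox* (1.77). Of 5 receptors and adhesion proteins, 0 were TE-low and 1 TE-high, the hyaluronan receptor *Cd44* (1.84). Between tissues, the mRNA of 5 of 10 enzymes was called higher in FL and 0 lower, including *Lox* at 3.26, whereas of 10 matrix proteins 2 were called higher, *Lum* (2.45) and the proteoglycan *Vcan* (2.26), and 4 lower, including the neuronal guidance and migration proteins *Slit1* (-5.33) and *Reln* (-4.55).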

How the data were processed

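The deposited values are a signal per gene, normalized reads. The authors trimmed adapters with cutadapt, aligned reads with Bowtie2 to the canonical UCSC isoforms of mm10, placed them by the A site, counted those on the coding sequence, leaving out 15 codons at its start and 5 at its end, and scaled each library by its DESeq size factor (versions are not given in the sources used here). The mesoderm (6 libraries, 12064 genes) and the NT and FL (12 libraries, 11231 genes) were normalized separately, so tests stayed within a table and only TE was set side by side. In each of the 18 libraries 100.0% of values were whole multiples of 1 read, to within 0.1 read.

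Models were fitted over all genes of a table in limma 3.58.1 (R 4.3.3; empirical Bayes with a mean trend) on log2(normalized reads + 1), which understates the change of low genes. The mesoderm fit had the replicate number as a block, and the NT and FL fit had none. Per the methods, sorted mesoderm cells were divided between both library types, and the paper's own mesoderm model held a replicate term. Equal numbers are not said to mark the same batch of cells. In the mesoderm, the correlation of deviations between Ribo-Seq and RNA-Seq of equal number was 0.74, 0.58 and 0.57. TE was centred on its median over genes. Calls needed a Benjamini-Hochberg adjusted p under 0.05 and 3-fold for TE, 0.2 and 2-fold for the change in TE, and 0.05 and 2-fold for mRNA and RPFs. Alternatives were pseudocounts of 0.1 and 8, a mean of at least 100 normalized reads, no centring (or centring), adjusted p alone, block fits, each library or replicate left out, and edgeR 4.0.16 and DESeq2 1.42.0 on the recovered reads. On simulated data limma called 200 of 200 genes changed 8-fold in TE in each tissue. For a 4-fold change in TE between tissues it called 167 of 200 (83.5%), and also 47 unchanged genes. The changed genes had a mean of at least 100 reads, and no simulated library was made to stand apart. Recovery was therefore not examined for genes with few reads or with a library such as FL Ribo-Seq replicate 3.

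The genes named are all members of the symbol rule, and the 3 other matrix lists. Members and lists were chosen with earlier results of these data known. Symbols paired with 27.6% of mesoderm and 28.4% of NT and FL identifiers, from supplementary lists held only in part. Positions, sequences and lengths are from GENCODE vM21 on GRCm38, whose isoforms can differ from those counted. No protein sequence was used. Tables were made in Python 3.11.15 (pandas 2.3.3, numpy 2.4.6).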

Additional observations from a re-analysis of the deposited data

Results flagged for a closer look

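Differences between tissues are singled out for 2 genes because the log2 TE lay above the median gene in every NT Ribo-Seq library and below it in every FL Ribo-Seq library. For *Itgb8* the log2 change in TE, FL minus NT, was -3.27, and -3.51 without FL Ribo-Seq replicate 3. For *Col6a3* it was -1.42, and -1.74 without that library. Both genes were brought in by this contrast, so the difference was not tested here. All groups have 3 libraries, too few for a check on single outlying samples.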

How the results depend on the processing

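Counts are of all members called in a comparison, 20 in the mesoderm and 17 elsewhere, so they describe members chosen partly on these measures. The 9 mesoderm TE calls were between 6 and 8 when a replicate was left out, 9 without the replicate block and 9 by edgeR and DESeq2. The 4 TE calls of NT became 8 on the adjusted p alone (6 lower and 2 higher) and 2 to 4 when a replicate or a library was left out. The 8 of FL became 13 and 6 to 11. The share of all genes called on the adjusted p alone was not computed. The change in TE was the least stable, with 1 call, 6 by DESeq2 and 0 to 16 when a replicate or a single library was left out. It had 16 without FL Ribo-Seq replicate 3 (19.8% of all genes lower) and 11 without NT Ribo-Seq replicate 3 (15% of all genes lower). It had 0 without NT Ribo-Seq replicate 2 or FL RNA-Seq replicate 2. Over all 11231 genes that comparison called 45, against 856 by DESeq2, 4072 without FL Ribo-Seq replicate 3 and 4833 without replicate 3. The 10 mRNA calls were between 6 and 12 and the 7 RPF calls between 5 and 8 with a replicate or library left out, and 6 and 4 with a replicate block within each tissue. With the replicate number as a block, NT and FL gave 4 and 8 TE calls, 1 for the change in TE, 9 for mRNA and 7 for RPFs. Per the methods both tissues were dissected from shared embryos and each cell suspension served both library types, but equal numbers are not said to mark this, and the correlation of deviations between Ribo-Seq and RNA-Seq was -0.28, 0.35 and 0.05 for NT, against 0.05, 0.12 and 0.09 for FL, so the fits without a block were kept. Tested calls lost with a block were the mRNA changes of *Adamts20* (adjusted p = 0.051 with the number as a block, 0.093 within each tissue), *Adamts10* (0.11) and *Col11a2* (0.31) and the RPF rise of *Col27a1* (0.12), the last 3 within each tissue. The other calls lost within each tissue were of members given as description. Among tested values the sign turned in 4 cases, with no call on the turned side: the mesoderm log2 TE of *Ltbp1* (0.13 without replicate 2, and as low as -0.31 without another), the mRNA change of *Itga10* (-0.09 with the block within each tissue) and the RPF change of *Adamts6* (0.26 without replicate 2, 0.02 without FL Ribo-Seq replicate 2, and as low as -1.96 without replicate 3). It also turned in values given as description, the NT log2 TE of *Adamts2* (-0.49 to 0.68), *Adamts5* (-0.35 to 0.21) and *Adamts19* (-0.05 to 0.47) and the RPF change of *Adamts19* (-0.65 to 0.23). TE-low calls of *Adamts6* (adjusted p = 0.092 and 0.087 without replicates 1 and 2) and *Itga10* in NT (0.053 without replicate 1) and *Col20a1* in FL (0.093 and 0.059 without replicates 1 and 2), the RPF fall of *Adamts20* (0.077 and 0.087) and the mRNA changes of *Adamts10* (0.071 without replicate 2), *Col11a2* (0.21 and 0.35) and *Adamts20* (0.17 and 0.23) were lost with a whole replicate left out, which leaves 2 libraries a group. The cause was not tested in any of these. Depth limits *Itga10* and *Adamts6* most, with as few as 3 and 5 reads in a Ribo-Seq library.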
